A study of Rattus norvegicus with 2 samples.

Results

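Smad7 and the core genes of TGF-beta signalling were followed in the line RBL-2H3, which derives from a rat basophilic leukemia and serves as a model of mast cells and basophils. Of 10 genes chosen by name, 9 were counted (Smad7, Smad2, Smad3, Smad4, Tgfbr1, Tgfbr2, Skil, Ski and Smurf2) among 14913 distinct gene names, and Smad6 was not analysed here. Smad7 prompted the choice because of its difference between these same libraries, so its values are a description, and the other genes were added for their place in the pathway. Poly(A)-selected RNA was sequenced from 1 library of cells incubated with IgE and 1 library of untreated cells, both of wild-type genotype. No dose, duration or antigen is stated for the incubation, and a leukemia line stands in for normal basophils. The series set out to look at what follows IgE-mediated activation of these cells.

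TGF-beta binds a pair of receptor kinases. The type II receptor Tgfbr2 phosphorylates the type I receptor Tgfbr1, which in turn phosphorylates Smad2 and Smad3, and these enter the nucleus with Smad4 and regulate transcription. Smad7 is an inhibitory Smad. It occupies the activated type I receptor, brings ubiquitin ligases such as Smurf2 to it, and is itself a TGF-beta target gene, so it closes a negative feedback loop. Ski and Skil (SnoN) are nuclear corepressors that bind the Smads, and Skil is also a feedback target. In mast cells TGF-beta has been described as a restraint on proliferation, on IgE receptor expression and on mediator release.

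The promoter windows of Smad7 and Skil are shown because both are well-known targets of the pathway that in turn restrain it. Both are from RefSeq (build GRCr8) and run 5′ to 3′ along the gene's strand, from 250 bases before the annotated start to 50 bases after it, 300 in all. Smad7 lies at chr18:71263258-71263557 on the plus strand and Skil at chr2:114203523-114203822 on the minus strand. In Smad7 the capitals mark the Sp1 motif GGGCGG. In Skil they mark the Smad box CAGAC and the cAMP response core TGACG, each on either strand.
Smad7: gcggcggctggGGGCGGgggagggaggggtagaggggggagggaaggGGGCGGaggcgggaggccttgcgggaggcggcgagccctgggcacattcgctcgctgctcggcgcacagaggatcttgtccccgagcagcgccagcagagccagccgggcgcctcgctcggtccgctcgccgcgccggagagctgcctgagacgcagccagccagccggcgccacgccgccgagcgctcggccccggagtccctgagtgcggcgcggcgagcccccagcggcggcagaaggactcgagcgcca
Skil: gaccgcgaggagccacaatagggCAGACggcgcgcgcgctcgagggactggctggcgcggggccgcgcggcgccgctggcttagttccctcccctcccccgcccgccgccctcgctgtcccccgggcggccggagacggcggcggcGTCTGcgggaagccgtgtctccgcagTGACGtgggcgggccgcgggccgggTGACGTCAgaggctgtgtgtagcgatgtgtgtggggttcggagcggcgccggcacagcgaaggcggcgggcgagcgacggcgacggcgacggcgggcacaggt
All 9 genes matched the promoter table, with 10 windows because Smad2 has 2 annotated starts, whose windows overlap.

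In the Smad7 window, the letters of the Smad box, of the Smad palindrome (GTCT directly followed by AGAC), of the AP-1 motif TGANTCA, of the cAMP response core and of the Egr motif GCGNGGGCG were not found on either strand. The Sp1 motif was found 2 times, the first from base -239 and the second from base -203 relative to the start. The Skil window held the Smad box from bases -227 and -104, and the core TGACG from bases -78, -53 and -50. The last 2 of these overlap, being the opposite strands of 1 palindrome. It also held 1 Egr motif and 4 Sp1 motifs, whose letters can overlap each other. Over all 33469 windows of this length, 50.1% held the Smad box, 0.197% the Smad palindrome, 7.33% the AP-1 motif, 21.2% the cAMP response core, 4.98% the Egr motif and 33.1% the Sp1 motif. Over the 7301 windows of genes with 500 or more reads, the shares were 48.0%, 0.205%, 4.52%, 34.9%, 9.96% and 64.5% in the same order. Among the 9 genes, Skil alone held the Smad box, Skil and Smad3 the cAMP response core, and Skil, Ski and Smurf2 the Egr motif. All but Smad4 held the Sp1 motif. The GC content was 77.7% for Smad7 and 77.3% for Skil, against a median of 61.3% over the windows of genes with 500 or more reads, and Smad4 had the lowest value of the set at 31.7%. A match of letters, or the lack of one, describes the window only. Bases outside it were not searched, so sites elsewhere in a promoter would be missed.

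The 26268330 counted reads of the IgE library and the 20917968 of the untreated library were put on the CPM scale, which corrects each count for the size of its library. With 1 library per condition no test across samples was possible, and every interval below covers counting error only. Any other difference between the 2 cultures or their preparation cannot be told apart from the treatment. Of the mast cell and basophil markers, 11 of 15 were counted, and their summed level was 9754 CPM in the IgE library and 9466 CPM in the untreated library. The 3 macrophage markers counted, of 9, summed to 3.21 and 5.48 CPM in the IgE and untreated libraries. The 3 lymphocyte markers counted, of 8, summed to 16.8 and 15.8 CPM in the IgE and untreated libraries. The 3 fibroblast and epithelial markers counted, of 10, summed to 400.5 CPM with IgE and 426.2 CPM untreated, nearly all from Col3a1 and Thy1. None of the markers counted was at 0 in both libraries, and their part in the differences below was not tested. In bulk RNA, fewer cells that express a gene and less of its RNA per cell cannot be told apart.

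The question of the comparison was which transcripts differ between IgE-treated and untreated cells. Smad7 stood 1.84-fold higher in the IgE library, while the receptors, Smad2, Smad4, the corepressors and Smurf2 had log2 folds between -0.19 and 0.22. Smad3 was weakly counted and lower with IgE. On the rule of size used here, a 2-fold difference, 0 of the 9 genes were higher and 0 lower, against 1.33% and 1.3% of the 12102 genes whose reads over the libraries summed to at least 20. At 1.5-fold, Smad7 was higher and Smad3 lower, against 3.66% and 3.53% of all genes.

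**Figure D1:**
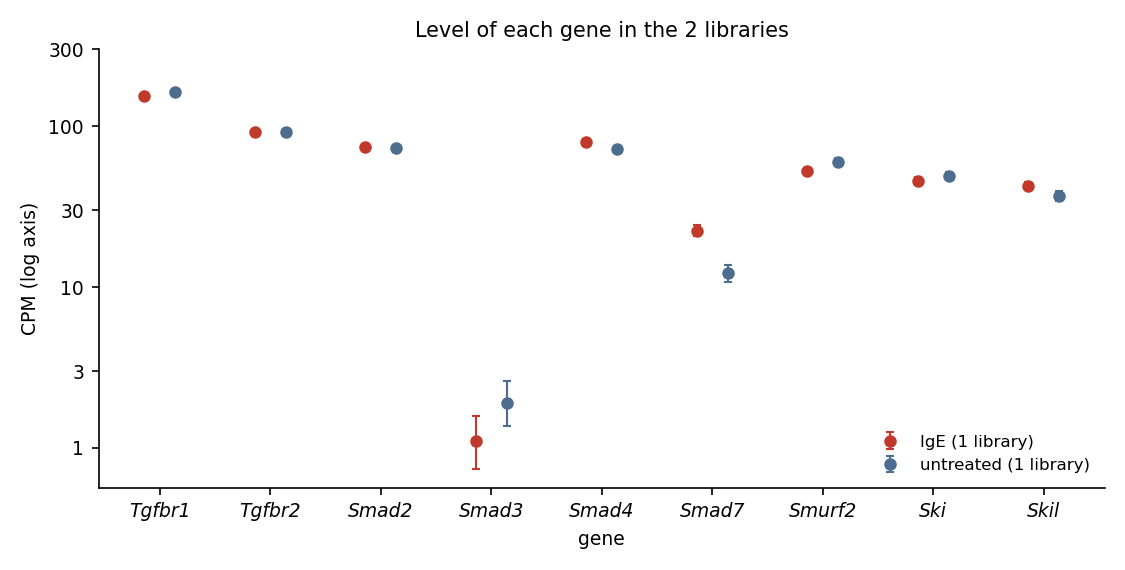
Level of each of the 9 genes in CPM (log axis), with the IgE library left and the untreated library right for each gene, and bars for the exact Poisson 95% counting interval. The points of Smad7 (22.4 CPM with IgE, 12.2 CPM untreated) are far apart relative to their bars, while those of Tgfbr2 and Smad2 nearly coincide. CPM is not divided by transcript length, so the plot compares libraries within a gene and not genes with each other.

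The 2 receptors came at nearly the same level in both libraries. Tgfbr2, the ligand-binding type II kinase, had 2393 reads (91.4 CPM) with IgE and 1934 reads (92.2 CPM) untreated, a log2 fold of -0.01 (counting interval -0.10 to 0.08). Tgfbr1, the type I kinase that phosphorylates the Smads, had 4046 reads (154.5 CPM) with IgE and 3433 reads (163.6 CPM) untreated. Its log2 fold was -0.08 (-0.15 to -0.02). Both kinases of the receptor complex drew many reads, so their counting intervals are narrow and lie close to no difference.

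Of the signal-carrying Smads, Smad2 and Smad4 were close to level. Smad2 had 1930 reads (73.7 CPM) with IgE and 1529 reads (72.9 CPM) untreated, a log2 fold of 0.02 (-0.08 to 0.11). Smad4, the common partner, had 2087 reads (79.7 CPM) with IgE and 1510 reads (72.0 CPM) untreated, a log2 fold of 0.15 (0.05 to 0.24). Smad3 differs from both in how few reads it drew. It had 29 reads (1.11 CPM, 0.74 to 1.59) with IgE and 40 reads (1.91 CPM, 1.36 to 2.60) untreated. Its log2 fold of -0.77 had a counting interval of -1.53 to -0.06, and the Poisson intervals of its 2 levels overlapped.

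Smad7, the inhibitory Smad, had 587 reads in the IgE library and 256 in the untreated library. These are 22.4 CPM (20.6 to 24.3) with IgE and 12.2 CPM (10.8 to 13.8) untreated, and the 2 intervals do not overlap. The log2 fold was 0.88, with a counting interval of 0.66 to 1.10 that takes in the 2-fold line. For Smad7 the authors' deposited table gives an adjusted p of 0.0600 and a log2 fold change of 0.87. That table's p-values were recomputed to within 3.47e-08 by edgeR's exact test at a fixed dispersion of 0.01, an assumed and not a measured spread. For the other 8 genes the authors' deposited table gives an adjusted p of 1. None of the 9 was in the authors' shorter deposited table of 451 selected genes, against 14913 distinct names counted. Most genes are thus absent from it, and absence says little about the 9. Of 73 further pathway genes counted, described below, 2 were in it.

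A ratio of reads within each library needs no scaling between libraries. There were 14.5 Smad7 reads per 100 reads of Smad2, Smad3 and Smad4 together with IgE and 8.31 untreated, a 1.74-fold difference (exact conditional counting interval 1.49 to 2.04). Against Tgfbr1, the receptor that Smad7 blocks, there were 14.5 Smad7 reads per 100 with IgE and 7.46 untreated, a 1.95-fold difference (1.66 to 2.28). Against Smurf2, its partner ligase, there were 42.8 per 100 with IgE and 20.3 untreated, a 2.1-fold difference (1.78 to 2.49). All 3 ratios share the Smad7 reads for which the gene was chosen, so they restate its difference on a scale that needs no scaling factor and add no support to it.

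Smurf2, the ubiquitin ligase that Smad7 recruits, lay in the opposite direction from Smad7. It had 1372 reads (52.4 CPM) with IgE and 1258 reads (59.9 CPM) untreated, a log2 fold of -0.19 (-0.31 to -0.08). Its close relative Smurf1, a member of the list of ligases and phosphatases that was named for its kinship and after its value was seen, was at -0.03 (-0.10 to 0.05).

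The corepressors Skil and Ski, which are related proteins, lay on opposite sides of 0. Skil had 1114 reads (42.5 CPM) with IgE and 768 reads (36.6 CPM) untreated, a log2 fold of 0.22 (0.08 to 0.35). Ski had 1191 reads (45.5 CPM) with IgE and 1026 reads (48.9 CPM) untreated, a log2 fold of -0.10 (-0.23 to 0.02). Skil reads per 100 Ski reads were 93.5 with IgE and 74.9 untreated, a 1.25-fold difference (1.10 to 1.42). Set against Skil, also a feedback target, there were 52.7 Smad7 reads per 100 with IgE and 33.3 untreated, a 1.58-fold difference (1.33 to 1.89). This ratio too rests on the Smad7 reads for which that gene was chosen, and adds no support to its difference.

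**Figure D2:**
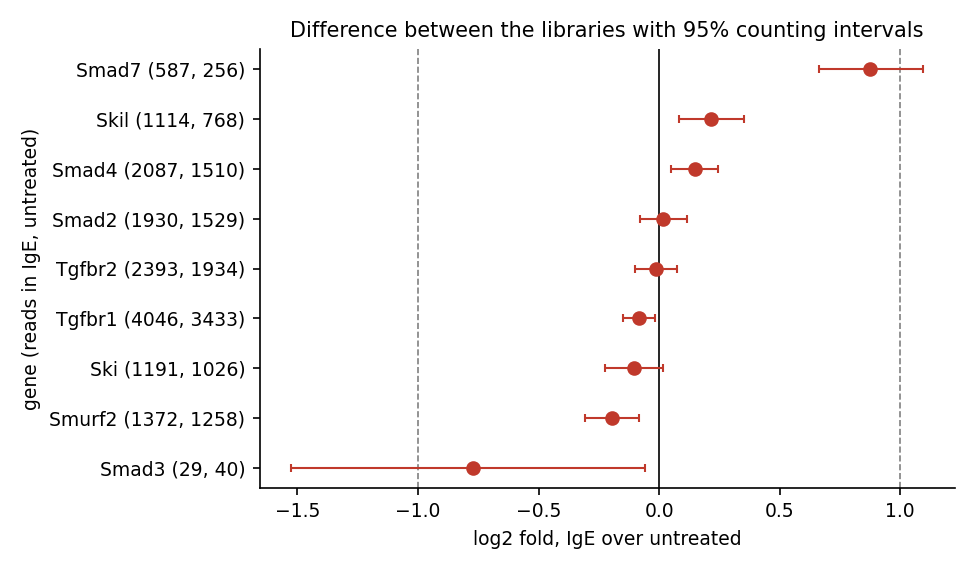
Log2 fold of IgE over untreated for the 9 genes, with exact 95% counting intervals, read numbers beside each name and dashed lines at a 2-fold difference. Smad7 is highest at 0.88, Smad3 is lowest at -0.77 with the widest interval (-1.53 to -0.06), and the other 7 lie between -0.19 and 0.22.

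Among the 9 genes, the counting interval lay above 0 for 3 (Smad7, Skil and Smad4), below 0 for 3 (Smad3, Tgfbr1 and Smurf2) and took in 0 for 3 (Smad2, Tgfbr2 and Ski). Over all genes with 20 or more reads it lay above 0 for 19.9% and below 0 for 18.6%, so an interval that excludes 0 is common in libraries of this depth. The median log2 fold of the 9 was -0.01, against 0.00 over all genes.

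Smad7 was chosen for its difference, so its rank is a description and adds no support to it. Of the 12102 genes with 20 or more reads, 215 had a log2 fold above that of Smad7 and 11886 below it. Of the 8369 genes with 500 or more reads, 4 had a log2 fold above that of Smad7 and 8364 below it. The 4 were Ccl2 (2.26), which encodes a monocyte chemoattractant, LOC100362453 (1.52), the zinc-finger factor Egr1 (1.22) and the nuclear IkappaB protein Nfkbiz (1.07). Over these 8369 genes the SD of the log2 fold was 0.17, and a 1.5-fold difference was reached by 0.347% on the higher and 0.0717% on the lower side. A closer match in level is the 3002 genes whose mean log2 CPM was within 1 of that of Smad7. Their SD was 0.21, with 23 genes at least 1.5-fold higher, Smad7 included, and 8 at least 1.5-fold lower. Among the 1417 genes over the minimum whose mean log2 CPM was within 1 of that of Smad3, the SD of the log2 fold was 0.60 and 135 genes had a lower log2 fold than Smad3. Skil had 793 of the 8369 genes above it, and Smurf2 had 735 below it.

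**Figure D3:**
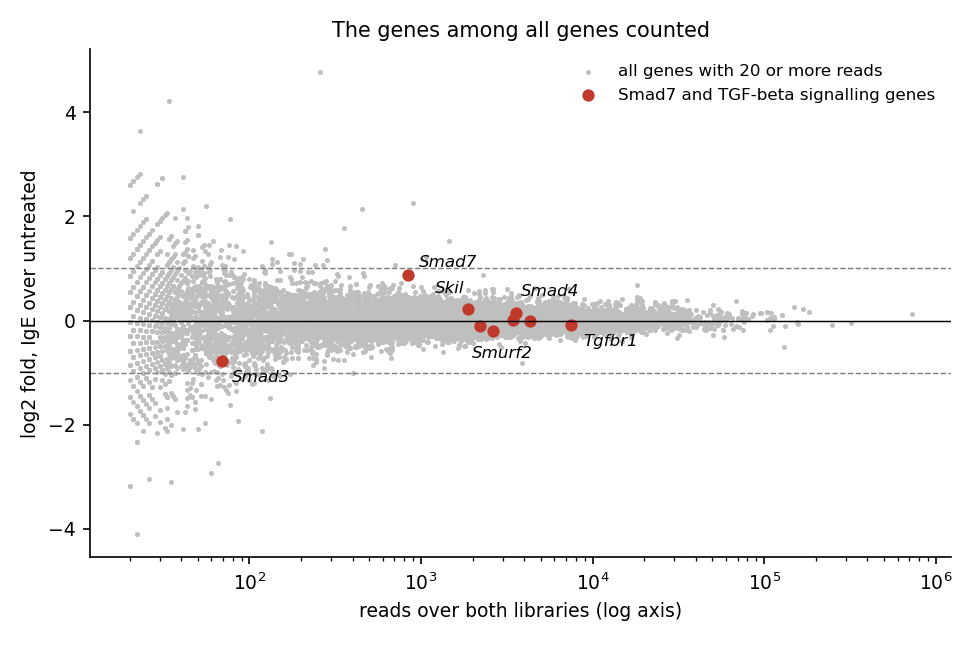
Log2 fold of IgE over untreated against reads over both libraries (log axis) for the 12102 genes over the minimum of 20 reads (grey) and the 9 genes (red), with dashed lines at a 2-fold difference. Smad7, with 587 reads with IgE and 256 untreated, sits at the upper edge of the grey cloud, while Smad3 lies inside the wide spread of weakly counted genes.

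The genes most like Smad7 were sought in a window of 3002 genes whose mean log2 CPM was within 1 of its own. Names without a gene symbol were left out, and the 5 with the nearest log2 fold over these 2 libraries were taken. They were Zmynd12 (log2 fold 0.86, counting interval 0.58 to 1.16), the cAMP-responsive transcription factor Crem (0.71, 0.49 to 0.94), the trafficking complex gene Trappc2l (0.71, 0.46 to 0.97), Apoo (0.69, 0.40 to 1.00), a mitochondrial inner membrane protein, and the Mediator subunit Med21 (0.69, 0.46 to 0.93). Zmynd12 had 12.4 CPM with IgE and 6.81 CPM untreated, and Crem had 19.7 CPM with IgE and 12.0 CPM untreated. Within that window 5 genes had a higher log2 fold than Smad7. Likeness over 2 libraries is a single difference, so many unrelated genes can share it.

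The rest of the pathway was described with lists ordered by role. Of 119 further genes, 73 were counted and 65 had 20 or more reads. By the 2-fold rule 0 of these 65 were higher and 1 lower, against 1.33% and 1.3% of all genes. The 1 was the type I receptor Acvr1, on few reads. Of the 65, 26 were above 0 and 39 below, against 6180 above and 5918 below over all genes. Their median was -0.03 on the log2 scale, against 0.00 for all genes.

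Tgfb1, the main TGF-beta isoform of blood cells, had 5857 reads (223.7 CPM) with IgE and 5201 reads (247.8 CPM) untreated, a log2 fold of -0.15 (-0.20 to -0.09). Gdf11, a ligand that also signals through Smad2 and Smad3, was at -0.12 (-0.23 to -0.0046). Bmp1, a secreted protease despite its name, had 491 reads (18.8 CPM) with IgE and 282 reads (13.4 CPM) untreated, a log2 fold of 0.48 (0.27 to 0.70). Tgfb3 and Gdf15, named after their values were seen, were under the minimum. Tgfb3 had 9 reads with IgE and 6 untreated. Gdf15 had 0 reads with IgE and 6 untreated, where 0 reads allow up to 0.115 CPM by the limit of 3 reads. Of the 5 genes of the ligand list counted, of 15, the 3 over the minimum, Bmp1 among them, had a median log2 fold of -0.12.

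In the list of genes that store or activate the ligand or antagonise it outside the cell, 5 of 18 had 20 or more reads. The antagonists counted were under that minimum. At 1.5-fold 0 of the 5 were higher and 0 lower, against 3.66% and 3.53% of all genes, a share that so short a list cannot be told apart from. Ltbp4, a latent TGF-beta binding protein, was at -0.32 (-0.47 to -0.16) and Furin, the convertase that cleaves the TGF-beta precursor, at -0.21 (-0.38 to -0.04). Nrros, which holds latent TGF-beta on myeloid cells, was at 0.04 (-0.07 to 0.14) and Ltbp3 at 0.00 (-0.34 to 0.35).

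Other receptors of the family held the extremes on the lower side. Acvr1, a type I receptor for BMPs and activins, had 33 reads (1.26 CPM) with IgE and 58 reads (2.76 CPM) untreated, a log2 fold of -1.12 (-1.80 to -0.49). Acvr2a, an activin type II receptor, had 223 reads (8.52 CPM) with IgE and 238 reads (11.3 CPM) untreated, a log2 fold of -0.41 (-0.68 to -0.14). Bmpr2, the BMP type II receptor, was at -0.04 (-0.14 to 0.06). Bambi, a decoy receptor that lacks a kinase, had 15 reads with IgE and 6 untreated, and its interval of -0.45 to 2.66 took in no difference. The lower values thus came from type I and type II receptors other than the TGF-beta pair, on fewer reads than Tgfbr1 and Tgfbr2.

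Of 15 other Smads and partners over the minimum, 0 were 1.5-fold higher and 0 lower, which is near the 3.66% and 3.53% over all genes. There were 4 above 0 and 11 below, against 6180 above and 5918 below over all genes. The BMP-specific Smad5 was at 0.04 (-0.05 to 0.12) and Smad9 at -0.16 (-0.54 to 0.22), both named after their values were seen. The lowest were Zfyve16 (-0.30), an endosomal Smad anchor, and Crebbp (-0.18), a histone acetyltransferase that serves as Smad coactivator. The highest were the corepressor Tgif1 (0.18) and Runx2 (0.07). The median was -0.04.

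The list of ubiquitin ligases, deubiquitinases and phosphatases also holds other regulators, such as Fkbp1a. Its 15 genes over the minimum had a median of -0.03. Here too 0 were 1.5-fold higher and 0 lower, near the 3.66% and 3.53% over all genes. The ligase Stub1 (CHIP) was lowest at -0.35 (-0.50 to -0.19), followed by Itch at -0.13 (-0.21 to -0.05). Uchl5, a deubiquitinase that binds Smad7, was highest at 0.15 (0.06 to 0.24), then Fkbp1a (FKBP12), which shields the type I receptor, at 0.14 (0.07 to 0.21). In the non-Smad arm, 13 of 13 genes were over the minimum, with a median of 0.00. They ran from Tab1 (-0.39, on 18 reads with IgE and 19 untreated) and Tab3 (-0.31), partners of the kinase TAK1, to Map2k3 (0.14) and Rhoa (0.15).

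TGF-beta target genes had the highest median of the 7 pathway lists. Without Smad7, Skil and Ski, 12 genes over the minimum had a median log2 fold of 0.15, with 8 above 0 and 4 below. Over all genes, 6180 were above 0 and 5918 below. At 2-fold, 0 were higher and 0 lower, near the 1.33% and 1.3% over all genes. Cdkn2b, a cell cycle inhibitor, was at -0.12 (-0.43 to 0.19). Bambi is also in this list. With its members Smad7, Skil and Ski counted in, 2 of its 15 genes over the minimum were 1.5-fold higher, Bambi on few reads and Smad7, which was chosen for its difference, against 3.66% of all genes. Id1, an inhibitor of basic helix-loop-helix factors that was named after its value was seen, had 0 reads in both libraries. By the limit of 3 reads this allows up to 0.115 CPM with IgE and 0.143 CPM untreated.

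Next below Bambi in the target list, leaving out Smad7, were Klf10, Gadd45b and Id2, all under 1.5-fold and picked out after their values were seen. They are given as values only, and 4 of the 12 genes lay below 0. Klf10, a zinc-finger factor first known as TGF-beta-inducible early gene, had 962 reads (36.7 CPM) with IgE and 594 reads (28.3 CPM) untreated, a log2 fold of 0.38 (0.23 to 0.53). Gadd45b, a stress-response gene, had 326 reads (12.4 CPM) with IgE and 210 reads (10.01 CPM) untreated, at 0.31 (0.06 to 0.57). Id2, a relative of Id1, had 2525 reads (96.4 CPM) with IgE and 1657 reads (79.0 CPM) untreated, at 0.29 (0.20 to 0.38).

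**Figure D4:**
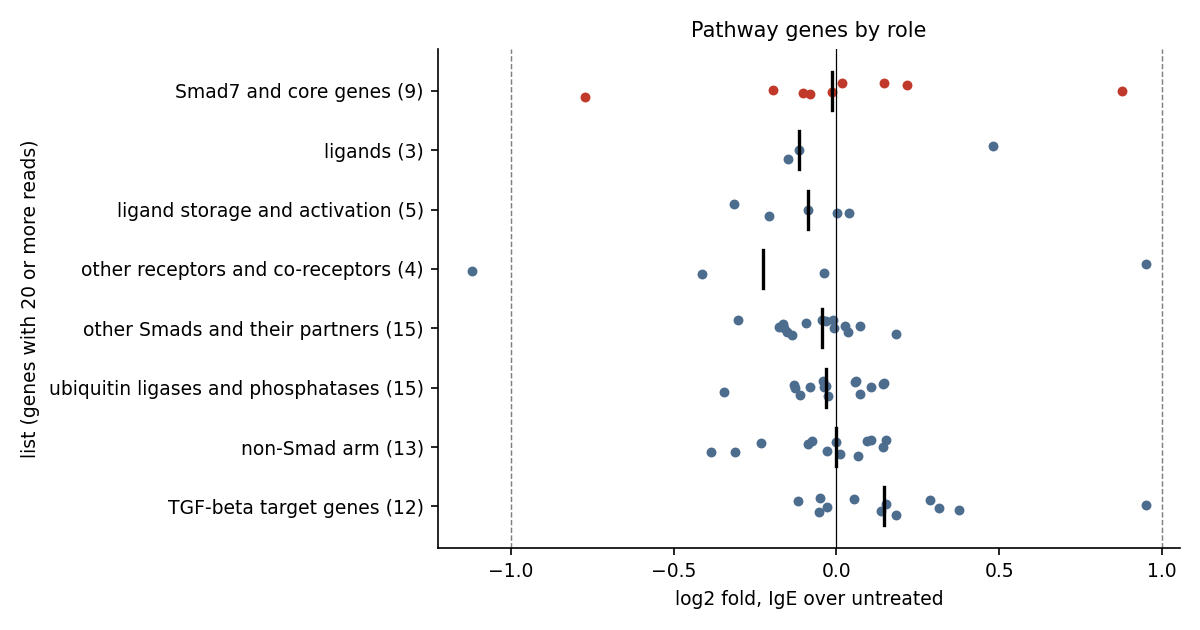
Log2 fold of IgE over untreated for the 9 genes (red) and for the pathway genes of each list with 20 or more reads (blue, without the 9), with a black bar at each median and dashed lines at a 2-fold difference. The medians run from -0.23 for the other receptors to 0.15 for the target genes, and of the genes plotted only Acvr1 lies past a 2-fold line.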

How the data were processed

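RNA from RBL-2H3 cells was poly(A)-selected and sequenced, 1 library per condition, per the labels' protocols. The authors deposited raw counts for each gene name. Beside them, per the file headers, stand the authors' log2 fold change and 2 columns of p-values, raw and adjusted. Per the submitters' processing notes, the build was rn6 and the tools included HISAT2 2.1.0, fastp 0.23.0 and DESeq2 1.18.1, whose roles are not stated. For the counting tool and strand setting, nothing is given in the sources used here, so reads of overlapping or near-identical genes cannot be told apart. Of 16990 rows, 2077 repeated a name with identical values and were kept once. From the counts, log2 CPM were computed with edgeR 4.0.16 in R 4.3.3 (TMM scaling, prior 0.5). Counts of genes used the 12102 names whose reads summed to at least 20. Intervals are 95% Clopper-Pearson (read ratios), Poisson (levels) and exact conditional (ratios of ratios). They cover counting error only, because 1 library per condition gives no spread between cultures. Sequencing reads need not be separate molecules, so the intervals can be too narrow even for counting error. The 3 reads taken as the limit for a count of 0 equal 0.115 CPM with IgE and 0.143 CPM untreated. Genes named outside the 9 were the 2 highest and 2 lowest of each list, and the 5 with a symbol nearest to Smad7, unless stated. The members and lists were chosen with earlier results of these data known. An alternative name of Pmepa1 that names another rat gene was dropped after the files were seen. Alternatives were library totals, DESeq2 1.42.0 size factors, a prior of 5, a minimum of 0 or 100 reads, a threshold of 1.5-fold, and a required counting interval. The calculation was tested on simulated data. Protein sequences were not used here. The list of target genes leaves out 1 gene that is not reported here, so its counts and median are those of the remaining genes.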

Additional observations from a re-analysis of the deposited data

How the results depend on the processing

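All 27 alternative folds of the 9 genes kept their sign and lay inside the counting intervals, and that of Smad7 was 0.87 under each scaling and prior tried, against 0.88. Smad3, on few reads, ranged from -0.78 with library totals to -0.68 with a prior of 5 counts. With a 1.5-fold threshold, 1 of the 9 genes was higher and 1 lower in place of 0 and 0, and of the other pathway genes 1 was higher in place of 0. The number of other pathway genes at least 2-fold lower was 2 with no minimum and 0 with a minimum of 100 reads, in place of 1, since those settings add or remove weakly counted genes. All 35 alternative list medians moved by less than the spread between the genes of their list, which is a wide bar. Medians near 0 could change sign. That of ligand storage, activation and extracellular antagonists was 0.0025 with no minimum, in place of -0.0864. That of the non-Smad arm was 0.0039 with a minimum of 100 reads, in place of -0.0028. Counting error limits Smad3, Acvr1 and Bambi, and no replicate gives the spread between cultures for any gene. No paired analysis was possible because there is only 1 library per condition, which also means that none could be left out.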
